A study of Homo sapiens with 4 samples.

Results

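BMI1 and 9 other core genes of Polycomb repressive complex 1 (PRC1) were examined in SUM159 cells in which SPEN had been lowered, SUM159 being a triple-negative line of breast cancer with mesenchymal traits. All 10 genes were present among the 23394 gene symbols of the deposited table, and all 10 had enough counts to be tested. The genes were BMI1, PCGF1, PCGF2, PCGF3, PCGF5, PCGF6, RING1, RNF2, CBX2 and CBX8. They were chosen by name as a family and with this same comparison already known, BMI1 having been seen to fall. Their differences between the groups are therefore given as a description, with no test of their own.

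PRC1 is a chromatin repressor that places a single ubiquitin on histone H2A. Each complex holds a catalytic RING protein, RING1 or RNF2, joined to a single PCGF protein that decides which partners can be added. With BMI1 or PCGF2 the complex may take a CBX chromodomain protein, which reads the methyl mark left by Polycomb repressive complex 2 (PRC2), and a PHC protein, and is then called canonical. The other PCGF proteins form variant complexes with RYBP or YAF2 in place of CBX. BMI1 is best known for repressing the CDKN2A locus and for its part in the self-renewal of normal and malignant stem cells, those of the breast included.

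The series held 2 control libraries from SUM159 cells given DMSO, the solvent, and 2 libraries from the same line under doxycycline, which induced an siRNA aimed at SHARP (another name of SPEN). Both groups shared the cell line and a medium with serum, insulin and hydrocortisone. The labels do not say whether the DMSO cells carried the inducible construct, and the controls had no doxycycline. The drug, effects of the siRNA on other transcripts and lower SPEN therefore cannot be told apart as sources of a difference. Each group came from a single cell line, and no label says that replicates were grown apart, so p-values cover the spread among these 4 libraries alone, possibly a technical spread.

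Libraries held 15641296 to 17197715 counts. Levels are given in CPM, the usual count scaled to library size, with edgeR's TMM factors applied. SPEN itself was at 186 and 184 CPM with DMSO and at 107 and 108 CPM after knockdown. Markers of the line were as labelled. VIM, CD44, FN1 and AXL summed to 6394 and 6384 CPM with DMSO and to 8709 and 8664 CPM after knockdown, and all 4 were higher at an adjusted p under 0.05 in edgeR's test, while CDH1, EPCAM, ESR1, PGR, KRT19 and GRHL2 summed to at most 0.518 CPM and CDH1, KRT19 and GRHL2 had 0 counts throughout. For 7 markers of leukocytes the sum was 36.3 and 40.4 CPM in the DMSO libraries against 46.8 and 47.7 CPM, mostly CD68. Among them ITGAM had 0 counts in both DMSO libraries and 10 and 19 after knockdown, and was called higher. CD14 had 14 and 11 counts against 3 and 7 and was not called. The part of these differences in the results was not tested. Endothelial markers summed to at most 2.56 CPM.

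Both catalytic subunits and 2 of the 6 PCGF genes were lower in the knockdown, whereas the other PCGF genes and the 2 CBX genes were not called. BMI1 stood at 0.480 times its control level, PCGF6 at 0.527, RNF2 at 0.624 and RING1 at 0.730. By edgeR's quasi-likelihood test with p-values adjusted over all 13915 tested genes, 4 of the 10 were called lower and 0 higher at 0.05. Among all tested genes 24.9% were called lower and 25.1% higher, and since the family was picked with these results known, nothing is read from the difference. The median log2 fold change was -0.06 over the 10 genes and 0.0012 over all tested genes. In such bulk RNA, fewer cells with a transcript and less transcript per cell cannot be told apart.

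**Figure D1:**
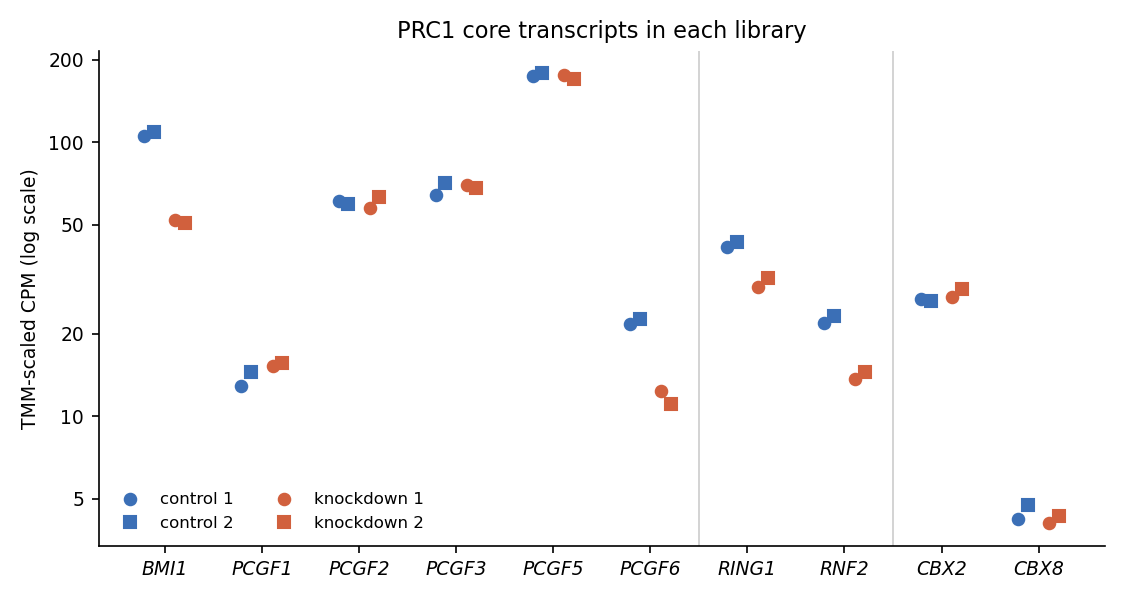
TMM-scaled CPM (log axis) of the 10 PRC1 core genes, with a point for each of the 2 control (blue) and 2 knockdown (orange) libraries. For BMI1, PCGF6, RING1 and RNF2 both knockdown points lie below both control points, while PCGF5, the most counted gene, has all 4 points between 170 and 179 CPM.

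BMI1, which activates the ubiquitin ligase of RNF2 and RING1 in canonical complexes, was at 105 and 109 CPM with DMSO and at 52.0 and 50.8 CPM after knockdown. The groups lay far apart and their replicates close together, the means being 107 ± 2.42 and 51.4 ± 0.882 CPM (SD, n = 2 each). The log2 fold change was -1.06 (SE 0.051), and 1.84% of tested genes had a lower value. Doubt about reads is small but present for this gene, since its deposited counts were 1768.94 and 1899 with DMSO and 803.999 and 782.999 after knockdown, not all whole numbers. The read-through gene COMMD3-BMI1, which splices the upstream neighbour COMMD3 to BMI1 and shares its exons, was listed at 23.3278 counts in control replicate 1 and at 0 in the other libraries. With those counts added to BMI1 the log2 fold change was -1.07.

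The neighbour itself went the other way. COMMD3, a member of the COMMD protein family encoded on the same strand directly before BMI1, was at 28.1 and 26.1 CPM in the controls and 31.5 and 30.1 CPM in the knockdown, and its rise of 0.18 on the log2 scale passed edgeR's test (adjusted p = 0.0256). That call was kept in 7 of 13 alternative settings, and was lost among others without either control library and without knockdown replicate 1. The COMMD3 count in control replicate 1 was 471.733, not a whole number, and adding COMMD3-BMI1 counts to COMMD3 was not tried. DNAJC1, another gene of the region, fell by 0.27 (adjusted p = 2.36e-04 in the same edgeR test), and SPAG6 was at 1 or 2 counts in each library.

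The region just before BMI1 is shown because SPEN acts as a corepressor of RBPJ, whose core site was searched there. The stretch covers the 250 bases before the first of 2 annotated starts, chr10:22320849-22321098 on the plus strand (RefSeq, GRCh38.p14, a different build from the GRCh37 of the counts), with matches to the RBPJ core TGGGAA on either strand and to the palindromic E-box CACGTG in capitals. The 2 motifs do not overlap each other.
BMI1: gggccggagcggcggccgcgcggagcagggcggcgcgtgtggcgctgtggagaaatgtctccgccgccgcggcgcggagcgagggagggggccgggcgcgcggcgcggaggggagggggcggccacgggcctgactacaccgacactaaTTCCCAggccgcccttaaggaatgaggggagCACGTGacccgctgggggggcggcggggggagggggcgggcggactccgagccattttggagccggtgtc
It held 1 match to each motif, with 76.8% G and C and 35 CpG dinucleotides, against medians of 58.0% and 11 over 35116 such windows. Of those windows 20.8% held the RBPJ core and 6.3% the E-box. The window before the other BMI1 start held neither motif. For 8 of the 10 genes, without CBX2 and CBX8, 12 windows were found, 4 of them for PCGF5, some of which overlapped. Of the 12 windows, 2 held the RBPJ core and 1 the E-box. The other window with the RBPJ core was that of PCGF2, which was not called, with 3 matches. Those of PCGF1, PCGF3, PCGF5, PCGF6, RING1 and RNF2 held neither motif. By GENCODE gene models some of these windows, among them those of PCGF1 and PCGF2, lie within the gene. The bases before other starts of these genes were not searched. A match says only that these letters are present.

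PCGF6, the PCGF protein of the variant complex that joins E2F6, MAX and MGA, was at 21.8 and 22.7 CPM in the control libraries and at 12.4 and 11.1 CPM in the knockdown. The groups did not overlap, and the log2 fold change was -0.92 (SE 0.095). It was the less counted of the 2 PCGF genes that fell, with 366 and 396 counts against 191 and 171.

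The remaining 4 PCGF genes were not called. PCGF2 (MEL18), the closest relative of BMI1 and its alternative in canonical complexes, was at 61.0 and 59.5 CPM in the controls and 57.6 and 63.4 CPM in the knockdown. These values overlapped, with a log2 fold change of 0.0057 (SE 0.051). PCGF5, a variant subunit, was at 174 and 179 against 176 and 170 CPM, and its log2 fold change of -0.026 had an SE of 0.033. Its counterpart in the same kind of complex, PCGF3, was at 64.3 and 70.9 against 69.8 and 68.0 CPM, again overlapping. PCGF1, the subunit of the BCOR and KDM2B complex, was at 12.9 and 14.6 against 15.3 and 15.7 CPM. Its knockdown values were both above the controls, but the log2 fold change of 0.17 (SE 0.10) did not pass. For PCGF2, PCGF3 and PCGF5 the direction itself changed with the setting.

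The catalytic subunits both fell. RNF2 (RING1B) was at 21.9 and 23.3 CPM in the controls and 13.7 and 14.5 CPM in the knockdown, a log2 fold change of -0.68 (SE 0.089). RING1 (RING1A), its paralog, was at 41.4 and 43.1 against 29.6 and 32.1 CPM, a log2 fold change of -0.45 (SE 0.055). In neither gene did the groups overlap. Their deposited counts were all whole numbers, from 212 for RNF2 to 753 for RING1.

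Among the chromodomain subunits in the family, CBX2 was at 26.8 and 26.4 CPM in the controls and 27.2 and 29.1 CPM in the knockdown, a log2 fold change of 0.084 (SE 0.065). CBX8 was the least counted of the 10 genes, with 71 and 83 counts against 63 and 67, which is 4.23 and 4.76 against 4.08 and 4.34 CPM. Its values overlapped, and its log2 fold change of -0.095 had the widest error of the 10 genes, an SE of 0.17. Over the 10 genes, 4 had groups that did not overlap with the knockdown lower, 2 (PCGF1 and CBX2) with the knockdown higher, and 4 overlapped. Of all tested genes 37.2% did not overlap with the knockdown lower and 37.0% with it higher.

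**Figure D2:**
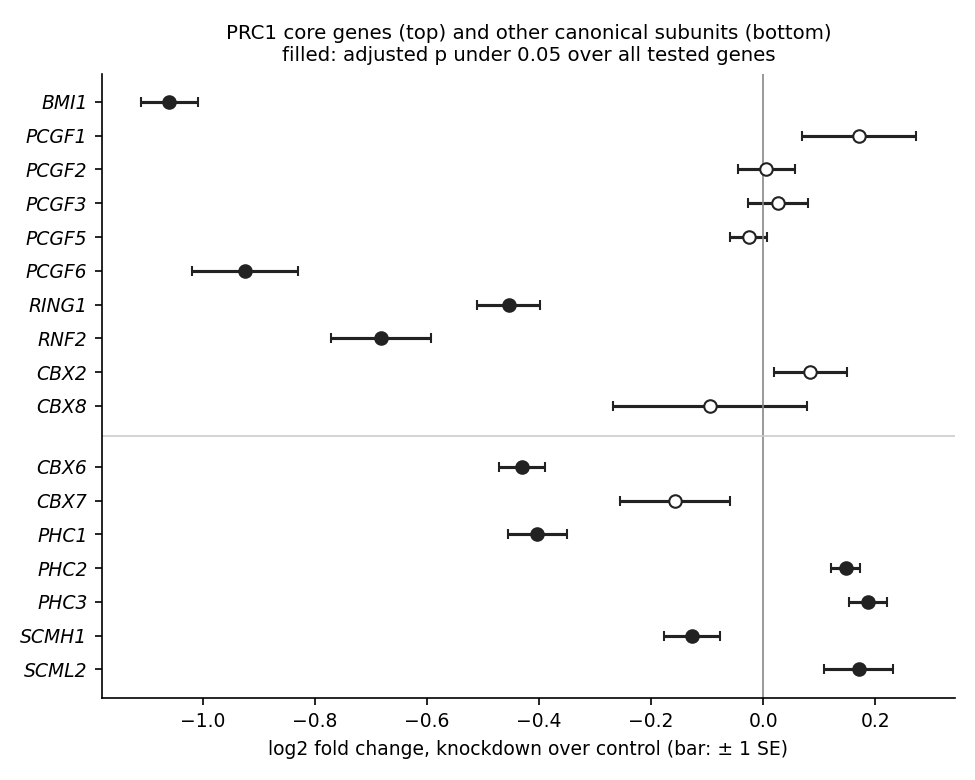
Log2 fold change, knockdown over control, with bars of 1 SE, for the 10 PRC1 core genes (top) and 7 other canonical subunits (bottom); filled points passed edgeR's test with adjustment over all tested genes. BMI1 at -1.06 and PCGF6 at -0.92 lie farthest to the left, and PCGF2, PCGF3 and PCGF5 lie next to the line at 0.

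Levels of different genes were compared per kilobase of merged exons, from GENCODE models. In the controls BMI1 was the highest PCGF transcript at 31.2 ± 0.706 CPM per kb, followed by PCGF5 at 24.2 ± 0.463, PCGF2 at 17.2 ± 0.297, PCGF3 at 10.6 ± 0.723, PCGF6 at 9.98 ± 0.281 and PCGF1 at 7.67 ± 0.641 (SD, n = 2 each). PCGF3 and PCGF6 overlapped, and the other neighbours in this order did not. In the knockdown the order was PCGF5 at 23.8 ± 0.657, PCGF2 at 17.2 ± 1.15, BMI1 at 15.0 ± 0.257, PCGF3 at 10.8 ± 0.205, PCGF1 at 8.64 ± 0.167 and PCGF6 at 5.26 ± 0.403 CPM per kb, with no overlap between neighbours. Thus BMI1 went from the first to the third place and PCGF6 from the fifth to the last. The order rests on the gene length, since with the median transcript length in place of merged exons PCGF3 (38.1) and PCGF2 (32.5) stood above BMI1 (31.2) in the controls.

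BMI1 made up 31.0% and 30.9% of the summed PCGF level per kb with DMSO and 18.8% and 18.4% after knockdown. The sum itself was 99.1 and 103 against 80.9 and 80.6 CPM per kb, 20.2 lower on average. BMI1 was lower by 16.2 and PCGF6 by 4.72 CPM per kb, set against a PCGF1 level that was 8.64 in the knockdown and 7.67 in the controls. PCGF5 held 24.1% and 23.9% of the sum with DMSO and 30.03% and 28.99% after knockdown, and PCGF2 17.5% and 16.5% against 20.3% and 22.4%. These larger shares go with levels per kb that overlapped between the groups for both genes, the shares being of a smaller sum.

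**Figure D3:**
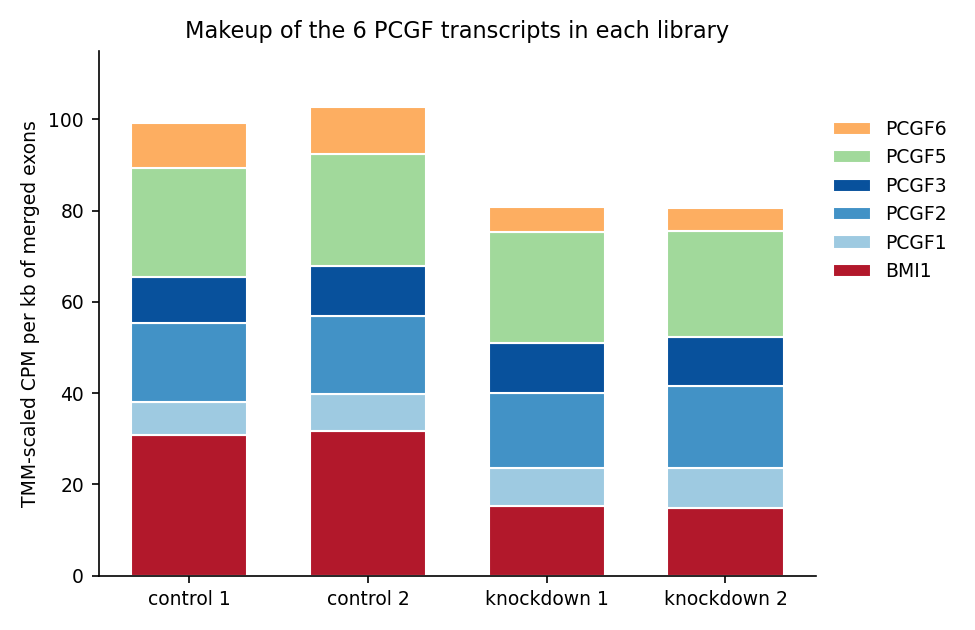
Stacked TMM-scaled CPM per kb of merged exons for the 6 PCGF genes in each of the 4 libraries. The BMI1 segment at the base goes from 30.7 and 31.7 in the controls to 15.2 and 14.8 in the knockdown, the PCGF6 segment at the top from 9.78 and 10.2 to 5.54 and 4.97, while the PCGF5 segment lies between 23.4 and 24.6 in all 4 libraries.

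RING1 was the more abundant catalytic transcript, at 24.1 ± 0.702 CPM per kb in the controls against 6.26 ± 0.285 for RNF2. RNF2 made up 20.4% and 20.8% of their sum with DMSO and 18.4% and 18.0% after knockdown. The sum went from 29.7 and 31.1 to 20.7 and 22.3 CPM per kb, 29.2% lower on average. Among Polycomb CBX genes, CBX6 stood at 27.1 ± 0.883 CPM per kb in the controls, above CBX2 at 4.95 ± 0.0595, CBX7 at 3.69 ± 0.101 and CBX8 at 1.19 ± 0.0981, and no neighbours in this order of 4 overlapped.

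A further feature that the rule did not use is the sequence GAAAGAA in the 3′ UTR, which an earlier look at these same fold changes had linked to lower genes, so it is no independent evidence. It occurred in 3 of the 4 genes that fell (BMI1, PCGF6 and RNF2) and in 2 of the 6 others (PCGF5 and CBX8), once in each. Of 11985 tested genes with an annotated 3′ UTR 25.1% held it, and 24.5% of those with a 3′ UTR of 1000 to 3000 bases. The sites are shown within 30 bases, from GENCODE transcripts, with the 7 bases in capitals.
BMI1: ttcaaccaacgGAAAGAAtatgcatagaat
PCGF6: tgatgctttctGAAAGAAatattttataaa
RNF2: attctgctgaaGAAAGAAaaattaaattgg
PCGF5: caaattgaagtGAAAGAAttaccaggtcat
CBX8: cttactccgcaGAAAGAAaagaaatccagc
The site begins at base 440 of 1942 in the 3′ UTR of BMI1, 956 of 1109 in PCGF6, 714 of 2307 in RNF2, 5627 of 6015 in PCGF5 and 814 of 2503 in CBX8. RING1, which fell, has a 3′ UTR of 323 bases without it. The part of this sequence in the results was not tested.

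The 4 genes that fell do not share a neighbourhood. BMI1 and PCGF6 lie on chromosome 10 at 22321211-22331484 (plus strand) and 103302796-103351144 (minus strand), RING1 on chromosome 6 at 33208495-33212722 (plus) and RNF2 on chromosome 1 at 185045364-185102608 (plus), all in GRCh38 by GENCODE. CBX2 and CBX8 are near each other on chromosome 17, at 79778132-79787983 and 79792132-79801683.

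The genes whose 4 library values lay nearest to those of BMI1, by Euclidean distance of log2 CPM centred on the control mean among 9686 tested genes with a mean of at least 10 CPM, were TMBIM6 (a membrane protein of the endoplasmic reticulum that limits cell death), EMC10 (a subunit of the complex that inserts membrane proteins there) and FAM120A (an RNA-binding protein), at distances of 0.0193, 0.0344 and 0.0359. With 4 libraries in 2 groups this measure mostly ranks genes by the size of their fold change.

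The other canonical subunits moved in both directions. Of 8 measured genes, 4 fell and 3 rose by edgeR's quasi-likelihood test, with a median log2 fold change of -0.14. Of all tested genes 24.9% fell and 25.1% rose by that test, and nothing is read from the difference. The chromodomain gene CBX6 (170 and 162 against 119 and 127 CPM) fell by 0.43 on the log2 scale, and PHC1, a polyhomeotic subunit that polymerises, by 0.40. Its paralogs rose, PHC3 by 0.19 and PHC2 by 0.15. The highest adjusted p of these 4 genes was 2.93e-04, for PHC3, and their calls were kept under all 13 alternatives. Of the other calls, SCMH1 (-0.13) and SCML2 (0.17) were kept in 5 and 6 of the 13, SCMH1 being lost without any 1 of the 4 libraries and SCML2 likewise. CBX7 had a log2 fold change of -0.16 and was not called.

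Partners of the variant complexes also moved both ways. Of 22 tested genes, 7 rose and 5 fell, beside 25.1% and 24.9% of all tested genes. Their log2 fold changes had a median of 0.038, and 3 fell without control replicate 2, without knockdown replicate 2 or with DESeq2. KDM2B, the demethylase that brings the PCGF1 complex to CpG islands, rose from 44.4 and 46.1 to 56.4 and 57.5 CPM (log2 fold change 0.33, edgeR adjusted p = 2.41e-05), and MGA, the scaffold of the PCGF6 complex, rose by 0.26 (edgeR adjusted p = 1.96e-05). FBRS, a paralog of the PCGF3 and PCGF5 partner AUTS2, fell by 0.47 (edgeR adjusted p = 3.93e-06) and TFDP1, the dimer partner of E2F proteins, by 0.43 (edgeR adjusted p = 6.12e-07). RYBP and YAF2, which replace CBX in variant complexes, were at log2 fold changes of -0.10 and -0.029 and were not called, and AUTS2 had 0 counts. Beside the fall of PCGF6, its partners MAX (0.035) and E2F6 (0.13) were not called.

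PRC2, whose methyl mark canonical PRC1 reads, was divided. Of 13 tested subunits 5 rose and 4 fell, beside 25.1% and 24.9% of all tested genes, and the median was 0.07 on the log2 scale. Without control replicate 1, 3 rose. JARID2, an accessory subunit that binds ubiquitinated H2A, rose from 33.7 and 27.2 to 53.4 and 53.4 CPM (log2 fold change 0.81, edgeR adjusted p = 2.24e-07), and LCOR, whose locus also encodes the accessory protein PALI1, from 40.9 and 41.6 to 72.9 and 70.8 CPM (0.80, edgeR adjusted p = 1.29e-09). The LCOR count does not tell the products of that locus apart, so its rise may not be that of a PRC2 subunit. PHF19 and RBBP7 fell by 0.36 and 0.21, with edgeR adjusted p of 1.52e-05 and 3.11e-05. The catalytic subunit EZH2 was at 44.8 and 44.3 against 46.6 and 44.5 CPM and was not called. Whether PRC1 core genes moved more than PRC2 genes was not tested.

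**Figure D4:**
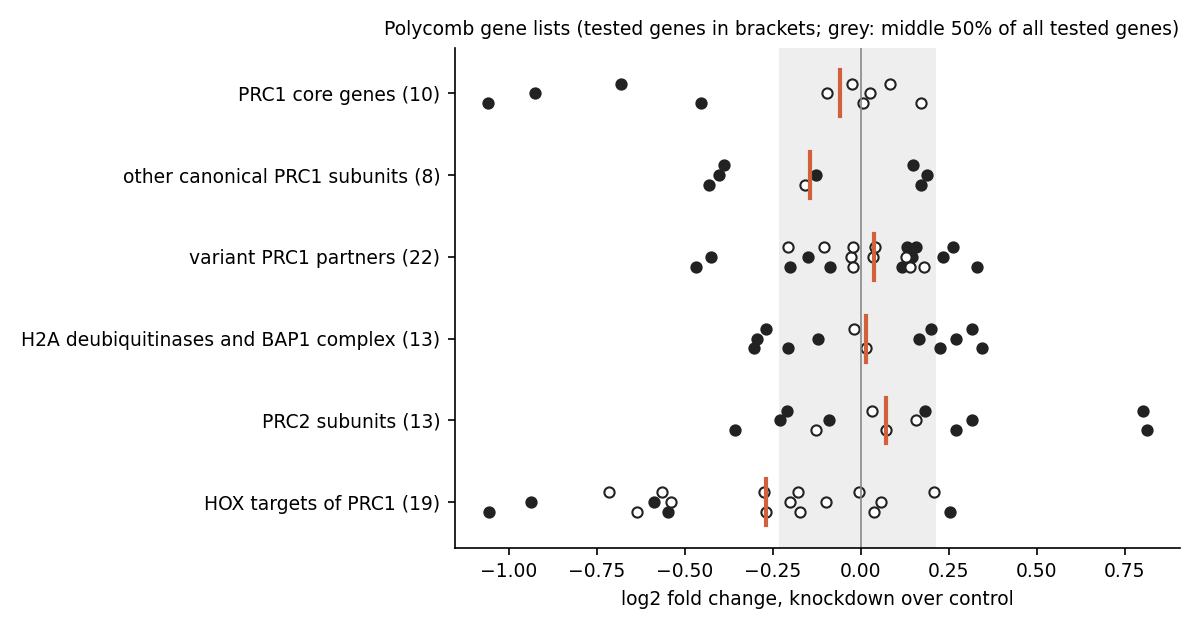
Log2 fold changes, knockdown over control, of the tested genes of 6 lists, with filled points for genes that passed edgeR's test, an orange bar at each median and a grey band over the middle 50% of all tested genes. The 4 PRC1 core genes that fell lie left of the band, and the HOX list has the lowest median, at -0.27.

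Textbook targets of PRC1 were read in the same libraries. The cell cycle inhibitor genes CDKN2A and CDKN2B are the best known loci repressed by BMI1. They were at most at 0.195 and 0.259 CPM in any library, too few to be tested. A floor of 3 counts is 0.172 to 0.195 CPM, so a fall from the control level was not detectable at this depth. Counts were 3 and 1 against 1 and 3 for CDKN2A, and 1 and 1 against 0 and 4 for CDKN2B. Neither gene rose to a level that could be tested. Such counts cannot tell a repressed locus from one that is absent from the genome of the line, so nothing is read from this. CDKN1A was at 42.5 and 43.1 CPM in the controls and 43.2 and 42.5 CPM in the knockdown (log2 fold change 0.00090, SE 0.047, edgeR adjusted p = 0.991), and CDKN1C at 7.63 and 6.25 against 5.76 and 6.48 CPM was not called. Of 39 HOX genes, the classic Polycomb targets, 19 could be tested, 4 fell and 1 rose, with a median log2 fold change of -0.27. Among all tested genes 24.9% fell and 25.1% rose. HOXC8 fell from 22.0 and 23.0 to 11.3 and 10.4 CPM (edgeR adjusted p = 3.07e-07) and HOXA10 from 13.2 and 13.6 to 6.66 and 7.33 CPM (edgeR adjusted p = 1.05e-05). HOXA3 fell by 0.55 on the log2 scale. HOXC13, at 0.25, was the gene that rose, and its call was lost without either control library and without knockdown replicate 1.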

How the data were processed

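RNA-seq values of 4 SUM159 libraries were used. The table deposited by the authors holds raw estimated counts for each gene symbol. The submitters' processing notes name STAR and GRCh37. Neither the program that counted reads, nor its annotation or strand setting, is given in the sources used here. In 591 genes some value lay over 0.01 from a whole number, so the sharing of reads between overlapping genes is uncertain. Columns were matched to samples by name, 0 sample columns were left unused, and estimated counts were rounded.

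The 10 core genes and the gene lists were chosen with earlier results of these data known. One fit over the whole table (the two-sided quasi-likelihood test of edgeR 4.0.16, R 4.3.3, with TMM scaling, genes filtered by filterByExpr at a minimum count of 10, and group alone in the model) tested 13915 of 18912 genes with a count. P-values were adjusted by Benjamini-Hochberg over all tested genes and called at 0.05. TMM factors were 0.983 to 1.02. The edgeR script was tested on simulated data with far fewer changed genes than were called here. That simulation does not show how TMM scaling performs on data such as these. Floors of 3 counts cover counting error only. Genes named were those 10, SPEN, up to 4 called genes of each list by smallest adjusted p, all genes of lists with 4 or fewer tested, and the 3 profiles nearest to BMI1; other genes were named after their values were seen, and a few genes under this rule are not reported here. Lengths, positions and 3′ UTRs came from GENCODE 29 (GRCh38) and promoter windows from RefSeq (GRCh38.p14), so no coordinate refers to the build of the counts. Alternatives were RLE, upper-quartile and library-size scaling, other low-count filters, DESeq2 1.42.0, limma-voom (limma 3.58.1), a replicate block, each library left out, flooring in place of rounding, another gene length, and adding COMMD3-BMI1 counts to BMI1.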

Additional observations from a re-analysis of the deposited data

How the results depend on the processing

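BMI1, PCGF6, RING1 and RNF2 kept their direction and call under all 13 alternatives (14 for BMI1), with log2 fold changes of -1.10 to -1.04, -1.01 to -0.85, -0.51 to -0.40 and -0.73 to -0.64, and the other 6 core genes were called under none. With the replicate block the log2 fold change of BMI1 was -1.06 and 3609 genes were called higher and 3602 lower, and the block changed no call among the 10 core genes and ended that of SCML2. The numbers are not stated to pair samples, and with 2 per group the deviations of same-numbered libraries correlated at 0.191 across genes, a hint from the data and not from the design. The log2 fold change of PCGF2 was -0.0040 with upper-quartile and -0.040 with library-size scaling, and -0.063 to 0.071 with a library left out. PCGF3 was at -0.019 with library-size scaling and -0.042 to 0.095 with a library left out, and PCGF5 at -0.056 to 0.0036 with a library left out. Variant partners called lower were 3 without the low-count filter and with DESeq2, and 3 to 5 with a library left out. With a library left out, H2A deubiquitinase and BAP1 complex genes called lower were 2 to 5, PRC2 subunits called higher 3 to 6, HOX genes called higher 0 to 2, and BMI1 neighbours called higher 0 to 1 and lower 1 to 2. HOX genes and BMI1 neighbours called higher were 0 each with library-size scaling, without the low-count filter and with DESeq2. With the median transcript length, the BMI1 share of the PCGF level was 21.5% in the controls and 11.97% in the knockdown, and with COMMD3-BMI1 counts added it was 31.1% in the controls. Causes of these shifts were not tested, except that leaving out a library leaves fewer samples and another length divides the same counts; where a group kept a single library, it was assumed to vary like the other group. CBX8 is limited by its depth.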

Other observations

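Enzymes that remove ubiquitin from histone H2A, the mark that PRC1 writes, were measured as a separate list. Of 13 tested genes of the deubiquitinases and the BAP1 complex, 6 rose and 5 fell by edgeR's quasi-likelihood test, with a median log2 fold change of 0.016. Among all tested genes 25.1% rose and 24.9% fell. Without control replicate 1, 2 fell, and 3 fell without control replicate 2 or knockdown replicate 1. The 3 deubiquitinases outside the BAP1 complex all rose. MYSM1 went from 113 and 102 to 135 and 139 CPM (log2 fold change 0.34, edgeR adjusted p = 3.04e-05) and USP16 from 85.5 and 82.7 to 109 and 101 CPM (0.32, edgeR adjusted p = 1.04e-04), and both calls were kept under all 13 alternatives. USP21, at 0.20, kept its call in 7 of 13, and lost it without either control library and without knockdown replicate 2. Within the BAP1 complex the transcription factor FOXK1 rose by 0.22 (edgeR adjusted p = 5.02e-07), and the cofactor HCFC1 fell by 0.27 (edgeR adjusted p = 6.69e-07). BAP1, its catalytic subunit, fell by 0.21, a call that was lost without either control library.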
